A study of Mus musculus with 16 samples.

Results

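The effect of oxygen–glucose deprivation (OGD) was estimated over both drug arms of the experiment at once, so that 8 OGD cultures were compared with 8 control cultures instead of 4 with 4. All 16 cultures of the series entered, chosen by their labels alone. They were primary neuronal cultures from the cortex of wild-type mouse embryos at embryonic day 15 and fell into 4 groups of 4, CONTROL-VEH (cultures 1 to 4), CONTROL-TIA (5 to 8), OGD-VEH (9 to 12) and OGD-TIA (13 to 16). TIA is tianeptine, an atypical antidepressant, which was given at 10 μM at 8 days in vitro, and cultures called VEH received its vehicle (the labels call them untreated). OGD or a sham exchange lasted 3 h, 24 h after the drug, and RNA was taken 6 h later. OGD imitates ischemia in a dish, and a culture of this kind models isolated cortical cells without blood supply, infiltrating immune cells or adult circuits. The study calls the cultures of a group biological replicates, and the p-values measure the spread between them; whether cultures of different groups came from the same preparation is not stated in the sources used here.

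When oxygen and glucose are withdrawn, neurons lose ATP, depolarise and release glutamate, which drives calcium into neighbouring cells, and the return of oxygen adds a burst of reactive oxygen species. Surviving cells answer in waves: immediate early transcription factors such as those of AP-1, then p53 and oxidative stress programs, chemokines, and genes for cytoskeleton and matrix that are also known from injured axons and reactive glia. Transcripts of synapses, ion channels and receptors, the costly equipment of a firing neuron, are commonly reduced in injured neurons.

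The deposited values were FPKM (fragments per kilobase of transcript scaled by the reads mapped in a library) of single isoforms. They were summed for each gene symbol, 0.1 was added and the log2 was taken. The 16313 genes whose mean reached 0.5 FPKM were tested with limma, a linear model across all genes, with the drug arm as a covariate, and p was adjusted by Benjamini-Hochberg (padj). A gene was called a DEG when its padj was at most 0.05 and its log2 fold change at least 1 or at most -1. All log2 fold changes are on the log2(FPKM + 0.1) scale, on which changes of low genes are understated. The labels give 18 to 23 M aligned reads per culture. An estimate from the FPKM that 1 read gives, which carries the TMM scaling of the values, was 20.2 to 25.5 M, above the labelled range in 11 cultures, and did not differ between OGD and CONTROL beyond the spread (two-sided exact permutation within arms, p = 0.959). Pseudogenes held 10.6 to 11% of the summed FPKM in the CONTROL cultures and 11.1 to 12.1% in the OGD cultures, without overlap (same exact test, p = 0.000408, the smallest it can give; adjusted over 6 library measures, p = 0.00245).

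Over both arms, 780 of the 16313 genes (4.78%) were DEGs, of which 456 rose (2.8%) and 324 fell (1.99%). A padj of at most 0.05 at any fold was reached by 5242 genes (32.1%), and an unadjusted p under 0.05 by 44.2% of the genes. The genes that rose most included *Fosl1*, *Emp1*, *Gbp2*, *Cxcl10* and *Ccl2*. The genes that fell most included *Galntl6*, *Fst*, *Crhbp*, *Sst* and *Epha6*. In the median, a gene that rose went from 1.95 FPKM in CONTROL to 5.80 in OGD cultures, and a gene that fell from 5.13 to 2.26. The called genes were mostly protein-coding, 87.9% of those that rose and 83.3% of those that fell, against 81.3% of the genes tested. In the median over all genes tested, the log2 fold change was 0.08.

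The OGD cultures were not equally changed. Over the 456 genes that rose, OGD-VEH 12 was the highest of the 8 OGD cultures for 320 genes, and OGD-TIA 13 was the lowest for 161, OGD-TIA 15 for 126 and OGD-VEH 9 for 91. The median log2(FPKM + 0.1) of these genes was 3.60 in OGD-VEH 12, 3.22 in OGD-VEH 10, 3.03 in OGD-TIA 16 and 3.00 in OGD-VEH 11, while it lay between 1.83 and 2.08 in OGD-VEH 9 and OGD-TIA 13, 14 and 15. Each arm held strongly and weakly changed cultures. For the genes that fell, OGD-VEH 12 was the lowest of the 8 for 211 of 324. Without OGD-VEH 12 the number of DEGs was 526, without OGD-VEH 9 it was 1058, and without OGD-TIA 16 it was 592.

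The 10 protein-coding genes with the largest increase and no overlap between the 8 OGD and the 8 CONTROL cultures are given first. *Fosl1* (ENSMUSG00000024912, GRCm38 chromosome 19, 5447547 to 5455946) encodes Fra-1, 1 of the AP-1 proteins. Its lowest, median and highest values were 0, 0.065 and 0.462 FPKM in CONTROL and 1.24, 2.98 and 8.63 FPKM in OGD cultures. *Fosl1* was close to the value of a few reads in every CONTROL culture and clearly expressed in every OGD culture, with a log2 fold change of 4.04 (SE, the standard error, 0.47, limma padj = 0.000435). *Emp1* (ENSMUSG00000030208, chromosome 6, 135362545 to 135383173), a small membrane protein of the PMP22 family, had 0.369, 0.956 and 1.28 FPKM in CONTROL against 5.52, 13.7 and 34.2 FPKM in OGD cultures. The lowest OGD culture lay several fold above the highest CONTROL culture, and the log2 fold change was 3.80 (SE 0.37, limma padj = 0.000211). *Gbp2*, an interferon-inducible GTPase, had 0.103, 0.198 and 0.297 FPKM in CONTROL and 1.44, 3.35 and 11.6 FPKM in OGD cultures (log2 fold change 3.76, SE 0.40).

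The next genes encode chemokines. *Cxcl10*, which attracts T cells, had 0.081, 0.244 and 0.508 FPKM in CONTROL and 0.884, 5.59 and 13.5 FPKM in OGD cultures (log2 fold change 3.69, SE 0.53, limma padj = 0.00117). *Ccl2*, which attracts monocytes, had at most 0.278 FPKM in CONTROL and between 0.344 and 11 FPKM in OGD cultures (log2 fold change 3.58, SE 0.58). For both chemokines, the weakest OGD culture came close to the CONTROL range and the strongest was far above it. *Timp1*, an inhibitor of matrix metalloproteinases, had 0, 0.377 and 0.585 FPKM in CONTROL and 1.44, 4.10 and 10.2 FPKM in OGD cultures (log2 fold change 3.30, SE 0.42). *Sprr1a*, a gene of cornified epithelium that injured sensory neurons also induce, was listed at 0 in the median of the CONTROL cultures and reached 0.463 to 2.96 FPKM in OGD cultures (log2 fold change 3.16, SE 0.40).

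*Osgin1*, an oxidative stress gene, rose from a median of 1.09 FPKM in CONTROL to 8.32 FPKM in OGD cultures, with values up to 51.8 FPKM (log2 fold change 3.04, SE 0.54). *Lgals3*, which encodes the lectin galectin-3, rose from a median of 2.46 to 18.4 FPKM (log2 fold change 3.03, SE 0.48). *Oaf* was the most abundant of the 10, with a median of 12.2 FPKM in CONTROL and 81.1 FPKM in OGD cultures (log2 fold change 2.90, SE 0.54). In the plot by culture, these 10 genes are separate between OGD and CONTROL, while the OGD cultures of a group differ widely among themselves.

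**Figure D1:**
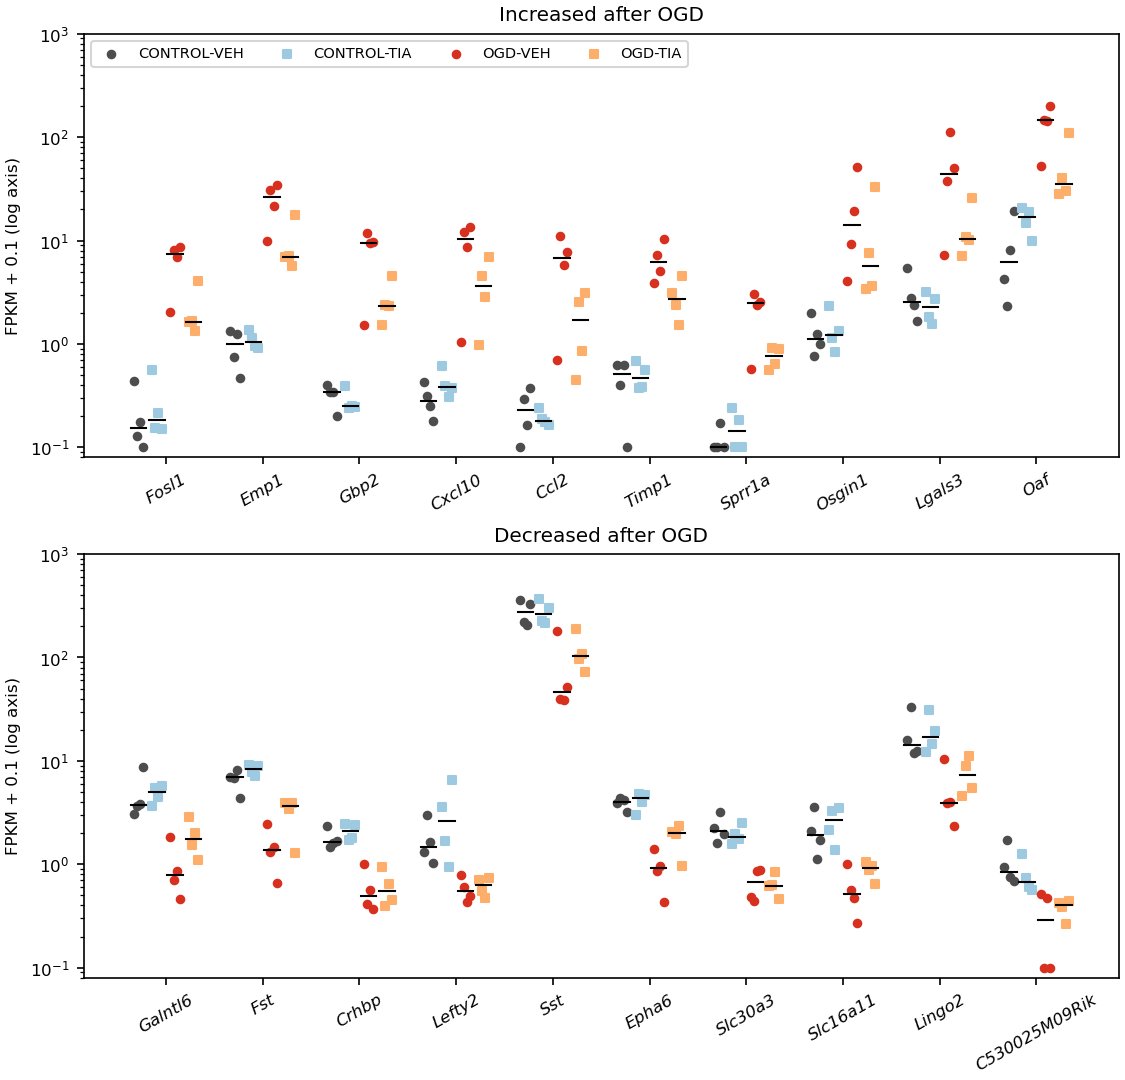
FPKM + 0.1 (log axis) of the 10 protein-coding genes with the largest increase (top) and the 10 with the largest decrease (bottom) whose 8 OGD cultures all lay beyond the 8 CONTROL cultures. Each point is 1 culture, colours mark the 4 groups and black bars their medians; *Fosl1* stood at no more than 0.462 FPKM in CONTROL and at no less than 1.24 FPKM in OGD cultures, and *Sst* at no less than 206 and no more than 190 FPKM.

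Because the AP-1 subunit *Fosl1* led the list, the region before the transcription start of these genes was read for the AP-1 site TGACTCA on both strands (TGAGTCA on the other strand). RefSeq windows on GRCm38.p6 from 250 bases before to 50 bases after the start were matched for 8 of the 10 genes, and 5 of the 8 held the site, *Emp1*, *Gbp2*, *Cxcl10*, *Sprr1a* and *Osgin1*. The 10 genes were picked for the size of their change. Over all DEGs the site stood in 27 of 331 windows of genes that rose (8.16%) and 9 of 216 windows of genes that fell (4.17%), beside 3.20% of the 10923 windows of all genes tested. Windows were matched for 72.6% of the genes that rose, 66.7% of those that fell and 67% of all genes tested, so a comparison of these shares is void for being under 80%, and they describe only the windows at hand. The CRE (TGACGTCA), the E-box (CACGTG), the hypoxia core (ACGTG), the GC box (GGGCGG), the CCAAT box and the TATA box (TATAAA) were counted as well, on both strands, and fall under the same limit. The 200 bases before the start are shown for 4 of the 5 genes, because their start lies next to that of the main isoform, with the AP-1 letters in capitals: *Emp1* at chr6:135362731-135362930 on the plus strand, *Cxcl10* at chr5:92348890-92349089 on the minus strand, *Sprr1a* at chr3:92485882-92486081 on the minus strand and *Osgin1* at chr8:119436947-119437146 on the plus strand.
Emp1: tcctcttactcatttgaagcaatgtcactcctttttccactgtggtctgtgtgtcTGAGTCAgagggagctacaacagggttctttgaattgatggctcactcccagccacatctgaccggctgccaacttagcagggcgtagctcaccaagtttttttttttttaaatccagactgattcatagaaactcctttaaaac
Cxcl10: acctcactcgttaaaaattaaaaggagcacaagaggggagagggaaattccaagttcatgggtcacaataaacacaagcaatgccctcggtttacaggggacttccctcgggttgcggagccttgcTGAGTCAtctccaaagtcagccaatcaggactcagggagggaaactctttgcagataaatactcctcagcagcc
Sprr1a: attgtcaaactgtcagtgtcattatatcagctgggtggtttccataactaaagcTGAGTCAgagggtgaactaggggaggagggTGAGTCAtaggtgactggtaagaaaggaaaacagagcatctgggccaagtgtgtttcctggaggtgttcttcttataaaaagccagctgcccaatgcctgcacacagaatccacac
Osgin1: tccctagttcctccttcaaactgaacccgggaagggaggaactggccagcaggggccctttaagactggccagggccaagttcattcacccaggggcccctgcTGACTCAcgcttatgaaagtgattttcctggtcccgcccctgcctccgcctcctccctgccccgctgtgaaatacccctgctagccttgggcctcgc
Counted back from the transcription start, the first base of the site is at -145 in *Emp1*, -74 in *Cxcl10*, -97 in *Osgin1* and -102 in *Gbp2*, and *Sprr1a* holds it at -146 and again at -116. By GENCODE, 27 bases of the *Emp1* window, 14 of the *Sprr1a* window, 29 of the *Osgin1* window and 0 of the *Cxcl10* window are exonic, and the *Cxcl10* window lies within the gene *Art3*. A match is a description of letters, and binding at these windows was not measured.

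Of 13 tested AP-1 subunits and partners, 3 rose and 0 fell, against 2.8 and 1.99% of all genes. Beside *Fosl1*, these were *Atf3*, a stress-induced partner of AP-1 (0.216 to 0.519 FPKM in CONTROL and 0.621 to 4.24 FPKM in OGD cultures, log2 fold change 1.91, SE 0.35), and *Fos*, the classical immediate early gene (median 2.03 against 5.46 FPKM, log2 fold change 1.49, SE 0.30). The values of *Atf3* did not overlap, and those of *Fos* did. *Jun* had a log2 fold change of -0.14, *Junb* 0.09 and *Fosl2* -0.28, none with a padj of at most 0.05, and the median of the list was 0.09. Of 28 activity-regulated genes, *Dusp4*, a phosphatase that terminates MAP kinase signalling, and *Cyr61*, a matricellular protein, rose, and *Egr3* fell. *Dusp4* had 9.16 to 16.2 FPKM in CONTROL and 17.0 to 80.7 FPKM in OGD cultures. *Egr3* had a median of 13.3 FPKM in CONTROL and 4.94 FPKM in OGD cultures (log2 fold change -1.48, SE 0.30). The activity markers *Arc* (0.18), *Bdnf* (-0.36) and *Nr4a1* (0.00) did not pass the test, and the median of the list was -0.20. Of the 28, 9 had a padj of at most 0.05 with a value below 0 (beside 13.4% of all genes tested). A further 3 had such a padj with a value above 0 (beside 18.7%). Of 18 MAP kinase feedback inhibitors, *Dusp4* alone was a DEG.

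Of all genes tested, 2.8% rose and 1.99% fell, and the counts in this and the following lists stand beside these shares. Among the 26 gene lists, that of cytokines, chemokines and NF-κB had the largest share of tested genes that rose. Of 26 tested, 13 rose (50%) and 0 fell, with a median log2 fold change of 1.02 beside 0.08 over all genes. The list holds 40 genes, and the others were under the filter. That filter takes the mean over OGD and CONTROL cultures, so a low gene can pass it by rising after OGD. Members low in both conditions drop out, which can raise the share and the median of this and other lists with low genes. The receptor gene *Osmr*, which binds oncostatin M, had a median of 0.498 FPKM in CONTROL and 2.65 FPKM in OGD cultures (log2 fold change 2.16, SE 0.32). *Clcf1*, a ligand of the same cytokine family, had 0.249, 0.633 and 1.27 FPKM in CONTROL and 1.54, 3.63 and 12 FPKM in OGD cultures (log2 fold change 2.31, SE 0.38). The values of *Clcf1* did not overlap between OGD and CONTROL, and those of *Osmr* overlapped by a narrow margin. Of the other members, named here after their values were seen, the prostaglandin synthase *Ptgs2* (2.72), the chemokines *Ccl7* (2.21) and *Cxcl1* (1.87) and the microglial growth factor *Csf1* (1.72) rose. The fractalkine gene *Cx3cl1*, a chemokine that neurons make, had a log2 fold change of -0.98 and was not past the fold threshold. The 12 microglial markers summed to 0.618 to 3.47 FPKM in CONTROL and 1.02 to 2.98 FPKM in OGD cultures, and *Cx3cr1*, *Trem2* and *C1qb* were at 0 in the median culture.

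The list of p53 and its targets had 11 of 36 members that rose (30.6%) and 0 that fell, with a median log2 fold change of 0.62. The list holds genes that the study examined in this setting, among them *Trp53* itself, and is not independent evidence of its direction. *Trp53*, which encodes p53, had 19.5, 54.0 and 65.3 FPKM in CONTROL and 83.4, 114 and 166 FPKM in OGD cultures, so that all OGD cultures lay above all CONTROL cultures (log2 fold change 1.48, SE 0.27, limma padj = 0.00258). *Pidd1*, a p53 target that builds a caspase-activating complex, had 2.81 to 5.44 FPKM in CONTROL and 6.19 to 19.5 FPKM in OGD cultures (log2 fold change 1.69, SE 0.19). *Phlda3*, a p53 target that restrains Akt, went from a median of 21.4 to 56.3 FPKM, and *Gtse1* and *Ckap2*, which are also cell cycle genes, rose with log2 fold changes of 1.59 and 1.47. The values of *Pidd1*, *Phlda3*, *Gtse1* and *Ckap2* did not overlap. The death receptor genes *Fas* (median 0.518 against 3.01 FPKM, log2 fold change 2.27, SE 0.37) and *Tnfrsf10b* (median 0.895 against 3.20 FPKM, log2 fold change 1.74, SE 0.30) rose with some overlap. Classical targets were less changed, with 0.66 for *Cdkn1a*, 0.60 for *Mdm2* and 0.45 for *Bax*, each with a padj of at most 0.05 and below the fold threshold.

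Of 27 genes of the cell death machinery, 2 rose (7.41%, beside 2.8% of all genes tested) and 0 fell (beside 1.99%). *Tnfrsf1a*, the main TNF receptor, went from 5.16, 5.84 and 12.7 FPKM to 8.60, 62.7 and 176 FPKM (log2 fold change 2.95, SE 0.44), with overlap. *Tnfrsf12a*, the TWEAK receptor Fn14, went from 1.25, 7.34 and 10.3 to 14.2, 23.0 and 56.5 FPKM without overlap (log2 fold change 2.16, SE 0.42). *Bcl2l1*, which restrains cell death, had a log2 fold change of -0.11. *Casp8*, the caspase activated by death receptors, was under the filter on low values, with 0 to 0.318 FPKM in CONTROL and 0.236 to 1.11 FPKM in OGD cultures, and had a log2 fold change of 1.64 (SE 0.33, limma padj = 0.00757 without the filter). Also under the filter was *Mmp3*, a matrix protease (listed at 0 in all CONTROL cultures and at 0 to 0.126 FPKM in OGD cultures). Each of these values rests on few reads.

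Antioxidant and metal genes formed the next group. Of 28 tested, 9 rose (32.1%) and 0 fell, with a median of 0.56. *Nfe2l2*, which encodes the antioxidant transcription factor NRF2, had 7.42, 8.44 and 11.8 FPKM in CONTROL and 15.3, 28.3 and 63.6 FPKM in OGD cultures (log2 fold change 1.63, SE 0.26). *Txnrd1*, thioredoxin reductase, had 96.8 to 137 FPKM in CONTROL and 165 to 606 FPKM in OGD cultures. The values of *Nfe2l2* and *Txnrd1* did not overlap. *Gclm*, a subunit of the enzyme that limits glutathione synthesis, went from a median of 65.5 to 251 FPKM and overlapped slightly (log2 fold change 1.71, SE 0.29). Members named after their values were seen were heme oxygenase *Hmox1* (2.45), sulfiredoxin *Srxn1* (2.06) and the quinone reductase *Nqo1* (1.78), all of which rose. The cystine importer *Slc7a11* rose from a median of 2.66 to 10.7 FPKM (2.02). The glutathione peroxidase *Gpx4*, which protects against ferroptosis, had a log2 fold change of 0.27.

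The actin cytoskeleton and annexin list had 13 of 31 members that rose (41.9%) and 0 that fell, with a median of 0.86. *Vim*, the intermediate filament vimentin, was the most abundant of those named, with 356, 440 and 550 FPKM in CONTROL and 697, 1155 and 2593 FPKM in OGD cultures, without overlap (log2 fold change 1.39, SE 0.23). *Lgals1*, galectin-1, had 6.24 to 14.9 FPKM in CONTROL and 20.5 to 87.9 FPKM in OGD cultures, also without overlap (log2 fold change 2.16, SE 0.31). The structural actins *Actb* (-0.16) and *Actg1* (-0.22) did not pass the test. Of 24 tested genes of matrix, proteases and inhibitors, out of 38 listed, 7 rose (29.2%) and 0 fell, with the limit of the filter given above. The hyaluronan receptor *Cd44* had 1.17, 2.91 and 3.83 FPKM in CONTROL and 7.03, 15.9 and 38.8 FPKM in OGD cultures, without overlap (log2 fold change 2.57, SE 0.35). *Spp1*, osteopontin, rose from a median of 0.180 to 1.01 FPKM, and *Itga5*, a fibronectin receptor subunit, from 1.17 to 7.61 FPKM. *Adamts7*, a matrix protease, had a log2 fold change of 0.93 (limma padj = 0.0113), just short of the fold threshold.

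Of 28 axon injury and regeneration genes, 4 rose (14.3%, beside 2.8% of all genes tested) and 1 fell (3.57%, beside 1.99%). Beside *Sprr1a* and *Atf3*, the small heat shock protein *Hspb1* (0.078 to 0.712 FPKM in CONTROL and 0.786 to 6.09 FPKM in OGD cultures) and the tubulin *Tubb6* (0.291 to 3.19 and 3.60 to 14.4 FPKM) rose without overlap, and all 4 were past the fold in both arms. The growth cone genes *Gap43* (-0.55), *Basp1* (-0.56) and *Stmn2* (-0.64) had lower values with a padj of at most 0.05, and the neuropeptide gene *Npy* fell (median 49.5 against 24.8 FPKM, log2 fold change -1.09), and the median of the list was -0.22. Of 24 growth factor ligands and receptors, 4 rose (16.7%) and 1 fell (4.17%). The receptors *Egfr* (median 11.1 against 63.4 FPKM, log2 fold change 2.06, SE 0.44) and *Erbb2* (1.49) and the ligands *Gdf15* (1.78) and *Nrg1* (1.37) rose with overlapping values, and *Pdgfb* fell (-1.03). Neither *Vegfa* (-0.33) nor *Ngfr* (-0.16) passed the test.

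Of 28 cell cycle genes, 6 rose (21.4%) and 0 fell, with a median of 0.76. The mitotic kinases *Aurkb* (median 4.57 against 19.1 FPKM, log2 fold change 1.71, SE 0.39) and *Plk1* (2.64 against 6.76 FPKM, 1.13) and the mitotic regulators *Cdc20* (1.32) and *Ccnb1* (1.02) were among them, all with overlapping values. Of the list, 27 had a value above 0 (beside 58.2% of all genes tested) and 15 of them a padj of at most 0.05 (beside 18.7%). The summed markers of neural progenitors, which divide, had medians of 1435 FPKM in CONTROL and 1923 FPKM in OGD cultures.

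Genes named for hypoxia, protein folding and the mitochondrial genome are given next, beside 2.8% up and 1.99% down over all genes tested. Of 41 hypoxia and glycolysis genes, 1 rose and 1 fell (2.44% each), with a median of -0.20. *Hif1a*, the oxygen-regulated transcription factor, had 71.6, 83.0 and 92.6 FPKM in CONTROL and 73.5, 82.4 and 104 FPKM in OGD cultures (log2 fold change 0.02, SE 0.09, limma padj = 0.852). The glucose transporter *Slc2a1* rose (median 8.76 against 22.4 FPKM, log2 fold change 1.37), and the lactate transporter *Slc16a3* fell (median 1.66 against 0.198 FPKM, log2 fold change -1.81). Both overlapped, *Slc2a1* with 6.47 to 42.1 FPKM in CONTROL and 10.6 to 88.7 FPKM in OGD cultures. *Slc16a3* had 0.128 to 3.515 FPKM in CONTROL and 0.148 to 0.677 FPKM in OGD cultures. *Pdk1* (-0.76) and *Bnip3* (-0.62), which hypoxia is known to induce, had lower values with a padj of at most 0.05. Of 39 genes of the integrated stress and unfolded protein response, 1 was a DEG (2.56%), *Slc7a11*. Below the fold threshold the list leaned upward. A value above 0 was found for 30 (beside 58.2% of all genes tested), with a padj of at most 0.05 for 13 (beside 18.7%). The chaperone *Hspa5* had a log2 fold change of -0.11. Of 24 heat shock genes, 3 rose (12.5%) and 0 fell. These were the small heat shock proteins *Hspb1* and *Hspb8* (1.20) and their partner *Bag3* (1.27), while the inducible *Hspa1a* had -0.64. Of 13 mitochondrially encoded proteins, 0 were DEGs with limma and 3 had a padj of at most 0.05, with log2 fold changes of 0.20 for *mt-Nd2* and 0.30 for *mt-Nd3*.

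Cholesterol genes had lower values together. Of 22 tested, 4 fell (18.2%) and 1 rose, and 20 had a padj of at most 0.05 with a value below 0, which held for 13.4% of all genes tested, with a median of -0.73. *Dhcr7*, the last enzyme of the pathway, had 71.7, 167 and 218 FPKM in CONTROL and 29.8, 57.5 and 99.5 FPKM in OGD cultures (log2 fold change -1.51, SE 0.30). The sterol carrier *Stard4* went from a median of 22.8 to 10.2 FPKM (log2 fold change -1.16, SE 0.27). The cholesterol exporter *Abca1* rose (1.09). All of these overlapped between OGD and CONTROL.

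**Figure D2:**
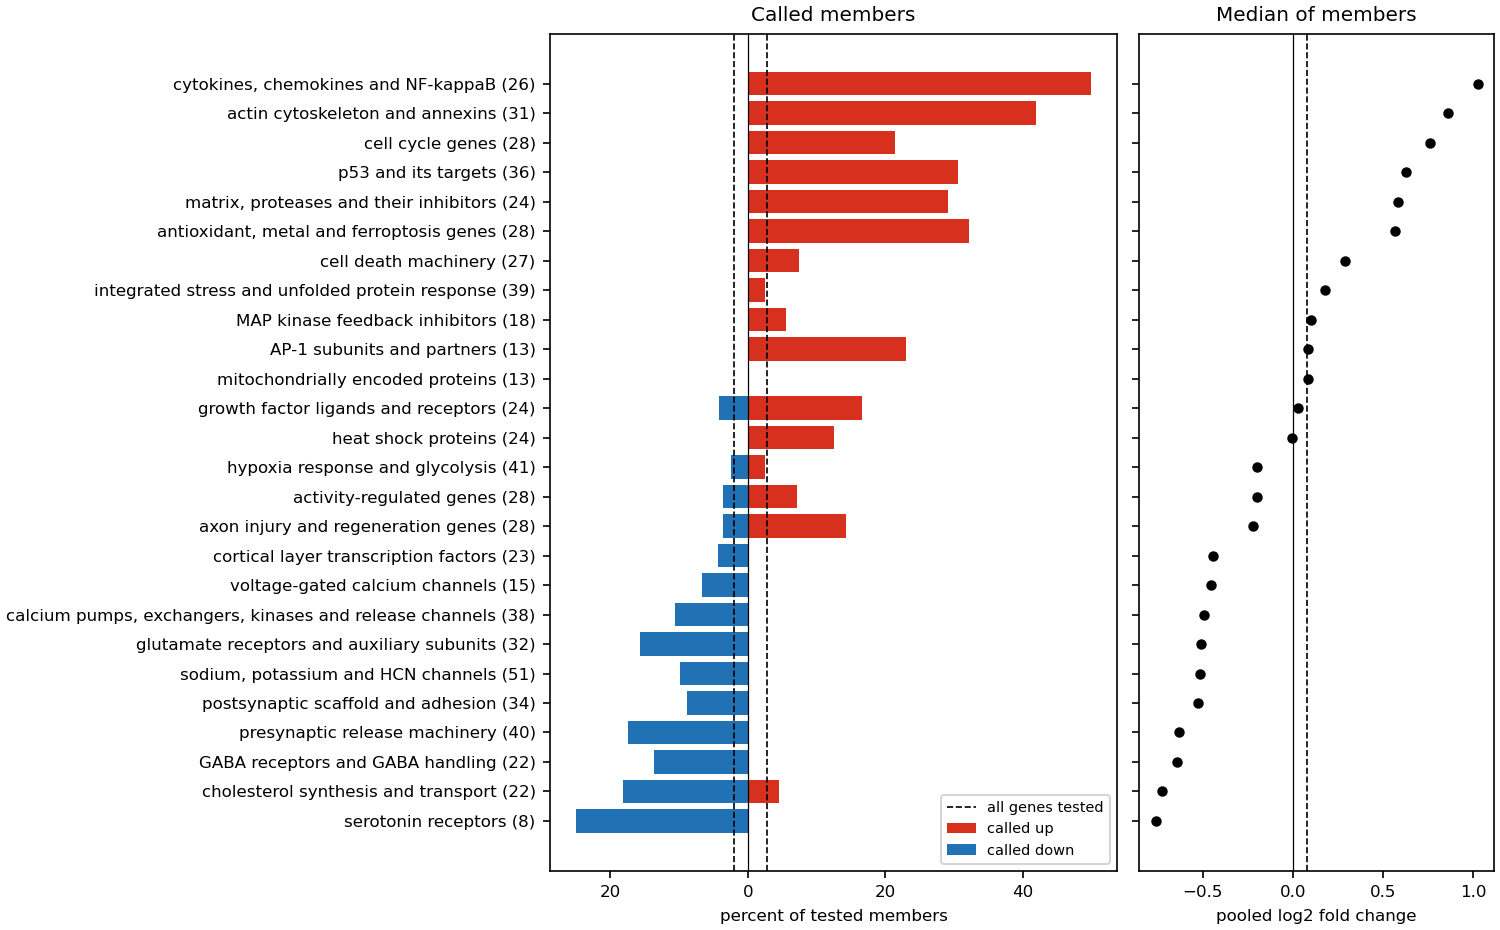
Left: percent of the tested members of each of 26 gene lists that were called up (red, to the right) or down (blue, to the left) over both arms, with the number tested in brackets; dashed lines mark 2.8% up and 1.99% down over all genes tested. Right: median pooled log2 fold change of the members, with the median of all genes (0.08) as a dashed line; cytokines have the highest median (1.02) and serotonin receptors the lowest (-0.76).

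The protein-coding genes with the largest decrease and no overlap are given next. *Galntl6*, of a family of enzymes that start O-linked glycosylation, had 3.00, 4.03 and 8.71 FPKM in CONTROL and 0.361, 1.22 and 2.74 FPKM in OGD cultures (log2 fold change -1.91, SE 0.31, limma padj = 0.00161). *Fst*, the activin antagonist follistatin, had 4.27, 7.36 and 9.03 FPKM in CONTROL and 0.554, 1.84 and 3.85 FPKM in OGD cultures (log2 fold change -1.90, SE 0.28). The decreases were smaller on the log2 scale than the largest increases. *Lefty2*, an antagonist of Nodal signalling, fell with *Fst* (median 1.56 against 0.479 FPKM, log2 fold change -1.77, SE 0.35). *Crhbp*, the binding protein of corticotropin-releasing hormone, had 1.37, 1.66 and 2.36 FPKM in CONTROL and 0.267, 0.406 and 0.898 FPKM in OGD cultures (log2 fold change -1.77, SE 0.23).

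*Sst* (ENSMUSG00000004366, chromosome 16, 23889573 to 23890958), the neuropeptide somatostatin of a class of cortical interneurons, was the most abundant of these genes. It had 206, 265 and 367 FPKM in CONTROL and 38.9, 84.5 and 190 FPKM in OGD cultures (log2 fold change -1.72, SE 0.31, limma padj = 0.00242). The highest OGD culture lay just below the lowest CONTROL culture. Of 15 interneuron markers, 4 fell (26.7%, beside 1.99% of all genes tested), *Sst*, *Npy*, *Lhx6* (-1.26) and *Calb1* (-1.44). *Pvalb* (1.01) alone rose (6.67%, beside 2.8%). The GABA-synthesising enzymes *Gad1* (-0.52) and *Gad2* (-0.46) did not pass the test. A value below 0 was found for 9 markers, 7 with a padj of at most 0.05, and a value above 0 for 6, 3 with such a padj. The 15 markers summed to 521 to 1005 FPKM in CONTROL and 313 to 603 FPKM in OGD cultures, with overlap. In bulk RNA, fewer cells of a type and less RNA per cell cannot be told apart. The receptor *Epha6* (median 3.98 against 1.09 FPKM, -1.71), the synaptic zinc transporter *Slc30a3* (1.86 against 0.522 FPKM, -1.71), the transporter *Slc16a11* (2.01 against 0.660 FPKM, -1.68), the adhesion protein *Lingo2* (15.2 against 4.97 FPKM, -1.64) and *C530025M09Rik* (0.647 against 0.306 FPKM, -1.56) completed the 10.

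Synaptic genes had lower values nearly throughout. All 40 tested genes of the presynaptic release machinery had a log2 fold change below 0, with a median of -0.63, 36 had a padj of at most 0.05 and 7 fell (17.5%). The median of this list was -0.95 in the VEH arm and -0.35 in the TIA arm. It was -0.73 and -0.34 for the postsynaptic list and -1.02 and -0.42 for serotonin receptors. The receptor, calcium and channel lists given below also had medians nearer to 0 in the TIA arm, and the difference was not tested for a list. Over all genes tested, 41.8% had a value below 0 and 13.4% such a value with a padj of at most 0.05, and the counts below 0 in the lists that follow stand beside these shares. *Syt1*, the calcium sensor of vesicle fusion, had 92.2, 97.4 and 112 FPKM in CONTROL and 18.2, 52.2 and 77.6 FPKM in OGD cultures (log2 fold change -1.11, SE 0.25), without overlap. *Syt13*, another synaptotagmin, fell without overlap (median 8.41 against 4.23 FPKM), and *Syn3*, a synapsin, with a narrow overlap (27.1 against 10.7 FPKM, -1.35). The vesicular glutamate transporter *Slc17a7*, named after its value was seen, fell as well (-1.11). Of 34 postsynaptic scaffold and adhesion genes, 3 fell (8.82%), and 26 had a padj of at most 0.05 with a value below 0. *Ddn*, dendrin, had 139, 204 and 235 FPKM in CONTROL and 16.6, 63.1 and 200 FPKM in OGD cultures (log2 fold change -1.67, SE 0.37), *Dlgap3* went from a median of 94.9 to 33.5 FPKM (-1.46), and *Dlg2*, PSD-93, fell at the threshold (-1.0). The scaffold *Dlg4*, PSD-95, had -0.47. The summed pan-neuronal markers were lower in every OGD culture as well, with medians of 4620 and 3487 FPKM, and their part in these values was not tested.

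Of 32 glutamate receptors and auxiliary subunits, 5 fell (15.6%), 0 rose, and 31 had a value below 0, with a median of -0.51. The AMPA receptor subunit *Gria1* had 46.3, 61.7 and 102 FPKM in CONTROL and 19.7, 33.8 and 46.6 FPKM in OGD cultures, which overlapped by a small margin (log2 fold change -1.06, SE 0.22). The metabotropic receptors *Grm7* (median 25.8 against 11 FPKM, -1.52) and *Grm2* (6.54 against 2.62 FPKM, -1.33) fell. *Grin1*, the obligatory NMDA receptor subunit, had 192, 200 and 228 FPKM in CONTROL and 30.3, 109 and 219 FPKM in OGD cultures, with a log2 fold change of -0.98 (limma padj = 0.0137), just short of the fold threshold. Of 22 genes of GABA receptors and GABA handling, 3 fell (13.6%) and all 22 had a value below 0. The GABA-B receptor subunit *Gabbr2* had 75.7 to 104 FPKM in CONTROL and 9.12 to 72.4 FPKM in OGD cultures (-1.17), and the GABA-A receptor subunit *Gabrd* (-1.20) fell. Of 8 serotonin receptors above the filter, 2 fell (25%), *Htr7* (median 1.39 against 0.662 FPKM, -1.08) and *Htr5a* (1.98 against 0.995 FPKM, -1.01). All 8 had a value below 0. *Htr4* was under the filter, with 0.239 to 0.357 FPKM in CONTROL and 0.049 to 0.253 FPKM in OGD cultures (-0.73, limma padj = 0.0152 without the filter).

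Of 38 calcium pumps, exchangers, kinases and release channels, 4 fell (10.5%) and 28 had a padj of at most 0.05 with a value below 0, with a median of -0.49. *Camk2a*, the abundant postsynaptic calcium/calmodulin kinase, had 96.8, 109 and 128 FPKM in CONTROL and 12.6, 56.4 and 103 FPKM in OGD cultures (log2 fold change -1.39, SE 0.37). *Itpka*, a kinase of inositol trisphosphate, had 7.62 to 11.9 FPKM in CONTROL and 1.41 to 6.44 FPKM in OGD cultures, without overlap and past the fold in both arms (-1.42). The calcium pump *Atp2b4* fell (-1.23), the pump *Atp2b3* had -0.97 and the sodium–calcium exchanger *Slc8a2* -0.79, the last 2 without overlap between OGD and CONTROL and short of the fold threshold. Of 15 voltage-gated calcium channel genes, 1 fell (6.67%, beside 1.99% of all genes tested), *Cacna2d2* (median 11.1 against 4.17 FPKM, -1.25). All 15 had a value below 0. Of 51 sodium, potassium and HCN channel genes, 5 fell (9.80%), among them the inward rectifiers *Kcnj9* (4.31 to 6.14 FPKM in CONTROL and 1.36 to 3.73 FPKM in OGD cultures, -1.11) and *Kcnj6* (-1.04), the Kv3 channel *Kcnc2* (-1.23) and the channel partner *Kcnip4* (-1.08), all 4 without overlap. Of 23 cortical layer transcription factors, 1 fell (4.35%), the neuronal activity-dependent factor *Mef2c* (median 489 against 202 FPKM, -1.24).

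Several of these calls were close to the fold threshold and were lost when single cultures were left out. Without OGD-VEH 12, the log2 fold change was -0.98 for *Mef2c*, -0.96 for *Erc2*, -0.93 for *Syt1*, -0.89 for *Gabbr2*, -0.97 for *Gabrd*, -0.98 for *Gria1*, -0.98 for *Htr7*, -0.83 for *Htr5a*, -0.77 for *Camkv*, -0.91 for *Kcnj6*, -0.73 for *Dlg2*, -0.79 for *Pdgfb* and 0.98 for *Hspb8*, so that none of these was called. For *Mef2c*, *Erc2*, *Syt1*, *Gabbr2* and *Gabrd* this was the only culture whose removal ended the call, while the other 8 lost theirs without each of 2 to 8 cultures in turn, *Dlg2* most often. Without OGD-TIA 16, *Stard4* fell short of the threshold and *Plk1* had 0.98, and *Npy* lost its call without CONTROL-VEH 4 or OGD-TIA 15 (nearest to 0 at -0.98) and *Kcnip4* without CONTROL-VEH 4 (-0.98). *Slc2a1*, *Abca1* and *Ccnb1* lost theirs without each of 9, 6 and 7 cultures in turn, with padj up to 0.0639, 0.0649 and 0.0538 from limma. When isoforms were weighted by length, 19 in place of 39 list genes fell, and *Camk2a*, *Syn3*, *Dlgap3*, *Dhcr7* and *Cacna2d2* were among those not called.

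Markers of cell types moved with these groups. The 12 pan-neuronal markers summed to 4437, 4620 and 4955 FPKM in CONTROL and 1826, 3487 and 4363 FPKM in OGD cultures, without overlap, with 1 of 12 called down (*Syt1*) and all 12 below 0. Markers of the oligodendrocyte lineage summed to 170, 197 and 223 FPKM in CONTROL and 236, 374 and 707 FPKM in OGD cultures, also without overlap, and *Olig2* (1.07), *Sox10* (1.17) and *Pdgfra* (1.19) rose, while the myelin gene *Mbp* had -0.68. Astrocyte markers (705 to 1690 against 825 to 2734 FPKM, with *Sox9* and *Aldh1l1* called up) and progenitor markers (1230 to 1572 against 1439 to 3164 FPKM, with *Nes* called up) overlapped. Endothelial markers summed to 8.32 to 39.6 against 6.16 to 28.0 FPKM, with *Cdh5* and *Cldn5* at 0 in the median culture, and fibroblast and mural markers to 11 to 18.4 against 7.42 to 12.4 FPKM. The cultures carried the neuronal markers that their label calls for. The part of these shifts in the higher matrix, cytoskeleton, cell cycle and *Vim* values was not tested either.

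**Figure D3:**
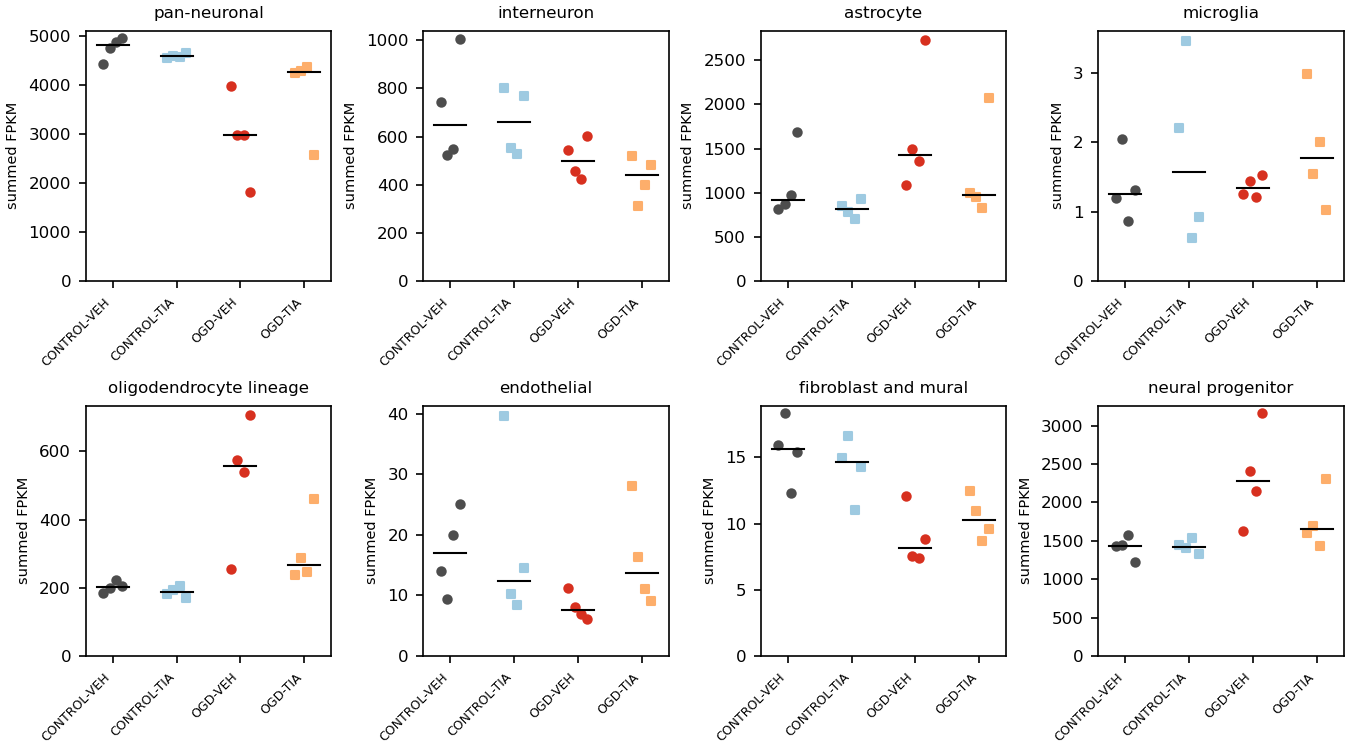
Summed FPKM of 8 cell type marker lists in each culture, by group, with bars at the group medians and each axis starting at 0. Pan-neuronal sums are at least 4437 in CONTROL and at most 4363 in OGD cultures, and oligodendrocyte lineage sums are at most 223 and at least 236; microglial sums stay under 4 FPKM in every culture.

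Each drug arm was then read by itself in the same 16 cultures, with a model of 4 group means. All 456 genes that rose and all 324 that fell had the same sign in both arms, as a description, since the pooled value is their average. Those that rose had a median log2 fold change of 1.63 between OGD-VEH and CONTROL-VEH and 1.02 between OGD-TIA and CONTROL-TIA, and 47 of the 456 had the larger value in the TIA arm. Those that fell had medians of -1.51 and -0.96, with the larger size in the TIA arm for 41 of 324. In the VEH arm 1390 genes (8.52%) met the thresholds, 727 of them up (4.46%) and 663 down (4.06%), and in the TIA arm 1 gene (0.00613%), *Emp1*, with 3 genes (0.0184%) at a padj of at most 0.05 at any fold, although 2526 genes (15.5%) had an unadjusted p under 0.05 there. With array quality weights the TIA arm had 179 genes (107 up and 72 down), with isoforms weighted by length 10 and without OGD-VEH 9 it had 39. Fitted alone on 8 cultures, the VEH arm had 668 DEGs of 16346 genes (4.09%), 393 up (2.4%) and 275 down (1.68%), and the TIA arm 0 of 16242 with limma, with 3174 genes (19.5%) at an unadjusted p under 0.05. The count in the VEH arm rests on OGD-VEH 9 and 12, since without them in turn it was 2402 and 678.

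The difference between the arms was tested as an interaction of OGD and TIA. With limma, 0 of 16313 genes passed (0%), 988 (6.06%) had an unadjusted p under 0.05 and the smallest padj was 0.722. The count depended on the weighting, as 101 genes passed with array quality weights (43 with the higher log2 fold change in the TIA arm and 58 with the lower), and 3 passed without the filter on low values. Fold changes of the top genes were smaller in the TIA arm in most cases, as for *Fosl1* (4.98 in the VEH arm and 3.10 in the TIA arm), *Timp1* (4.13 and 2.47) and *Oaf* (4.29 and 1.51), and these differences did not pass correction (limma padj = 0.722 for each). They were nearly equal for *Slc30a3* (-1.79 and -1.63), *Crhbp* (-1.69 and -1.86) and *Plk1* (1.10 and 1.15), with standard errors of the difference of 0.42, 0.48 and 0.52. A p that misses the threshold does not show that the arms respond alike. The genes with the smallest interaction p were *Gm9512*, a processed pseudogene (0.93 in the VEH arm and -0.13 in the TIA arm), *Nans*, sialic acid synthase (-0.92 and 0.04), and *Exosc2*, a subunit of the RNA exosome (0.71 and -0.18), none of them a pooled DEG.

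Genes were counted as shared by both arms when they were pooled DEGs, had a log2 fold change of at least 1 in size in each arm and had no overlap between the 4 OGD and 4 CONTROL cultures within each arm. This held for 99 genes that rose (0.607% of all genes tested) and 50 that fell (0.307%), 149 in all. It is a description of how far the pooled DEGs stand apart, since the same values chose them. All 20 genes of the largest changes given above were among the 149. Of the 456 genes that rose, 220 were past the fold in both arms and 128 had all 8 OGD above all 8 CONTROL cultures (28.1%, beside 3.22% of all genes tested), and in 174 the 4 OGD cultures lay above the 4 CONTROL cultures within each arm (beside 4.67% of all genes). Of the 324 that fell, the numbers were 137, 79 (24.4%, beside 2.42%) and 113 (beside 3.51%). Shared genes of the lists that rose included *Pidd1*, *Ckap2*, *Gtse1* and *Fas* for p53, *Nfe2l2* and *Gclm* for oxidative stress, and *Cd44* and *Spp1* for matrix. Among the shared decreases, *Itpka* and *Kcnj9* were the only members of the 26 gene lists. The lists of presynaptic, postsynaptic, glutamate receptor, GABA, serotonin receptor and cholesterol genes had 0 shared decreases. *Trp53* (2.0 in the VEH arm and 0.95 in the TIA arm), *Fos* (2.12 and 0.87) and *Camk2a* (-1.88 and -0.89) were pooled DEGs outside the shared set. Without OGD-TIA 16, the most changed of its group, the shared set held 49 genes that rose and 26 that fell. Without OGD-VEH 9 it held 79 that fell.

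**Figure D4:**
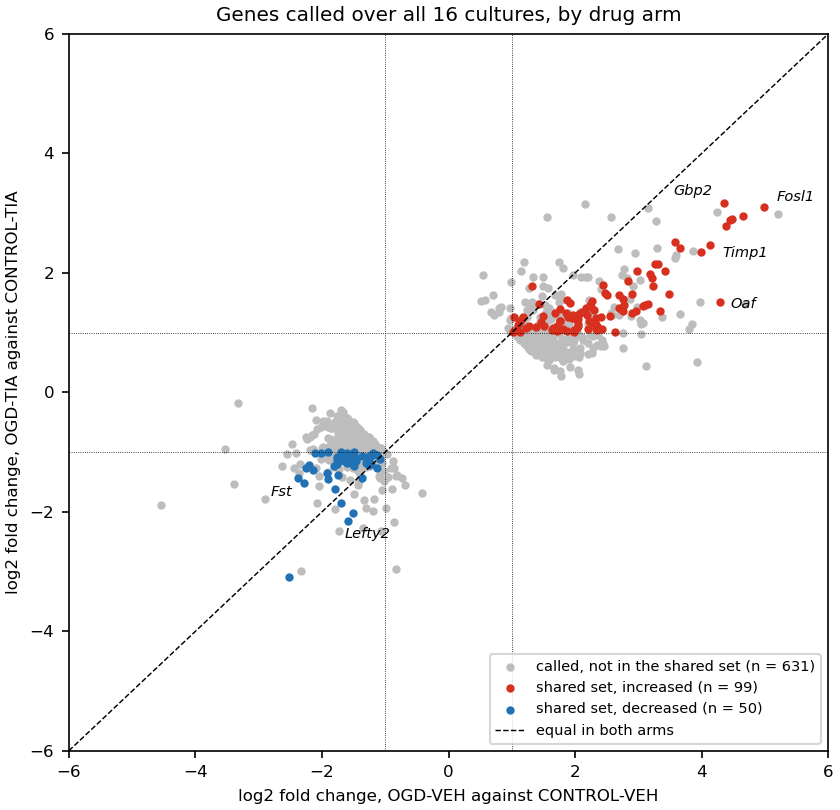
Log2 fold change of each of the 780 pooled DEGs in the VEH arm (x axis) and in the TIA arm (y axis), with dotted lines at the fold threshold and a dashed line of equal values. Red and blue points are the 99 and 50 genes shared by both arms by the rule in the text, and 47 of the 456 genes that rose and 41 of the 324 that fell have the larger size in the TIA arm, with medians of 1.63 and 1.02 for genes that rose and -1.51 and -0.96 for genes that fell.

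Genes without a protein product were a small share of the DEGs. Of the genes that rose, 33 were pseudogenes (7.24%, beside 8.58% of the genes tested) and 18 long noncoding (3.95%), and of those that fell 10 were pseudogenes (3.09%) and 42 long noncoding (13%, beside 7.52% of the genes tested). The largest changes without overlap were *Gm37795*, a transcript still to be verified experimentally (median 0.671 against 2.48 FPKM, log2 fold change 1.72), *Cd63-ps* (14.4 against 35.0 FPKM, 1.35) and *Gm15417* (1.20 against 2.67 FPKM, 1.13) among those that rose, and *Gm48249* (2.32 against 0.574 FPKM, -1.58), *A830029E22Rik* (2.09 against 0.699 FPKM, -1.52) and *Gm9916* (6.44 against 2.98 FPKM, -1.45) among those that fell. Reads of a pseudogene such as *Cd63-ps* can be split with its near-identical parent gene, and its value is uncertain for that reason. *Gm15417* and *Gm48249* are annotated as antisense, and the strand setting of the counting is not given in the sources used here, so their reads cannot be told apart with certainty from those of the overlapping gene. At the fold threshold, *Tk1* was the called gene nearest to 1 and *Gm1826* the nearest gene left out, with medians of 2.10 against 5.32 and 0.585 against 1.22 FPKM, and *B230303A05Rik* and *Nhsl2* were the pair on the side of decrease (1.34 against 0.796 and 2.51 against 1.31 FPKM).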

How the data were processed

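RNA of 16 cultures of mouse cortical neurons (4 groups of 4) was sequenced as stranded mRNA libraries with 50-base single-end reads. Per the study's methods, the authors' service provider mapped the reads with STAR to GRCm38 with Ensembl release 92 and estimated isoform expression with eXpress; the deposited FPKM were scaled by TMM according to the file. Tool versions are not given in the sources used here. Of 135276 lines, 74 without an identifier were left out, and 135202 isoforms were summed into 53679 gene symbols, with types and positions from GENCODE M21, which held 99.89% of the isoforms by identifier. 119 symbols pair more than 1 gene identifier.

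All cultures were grouped by their labels. FPKM are not counts, so limma 3.58.1 in R 4.3.3 was run on log2(FPKM + 0.1) for the 16313 genes whose mean reached 0.5 FPKM (arm and OGD as terms, empirical Bayes with a trend, Benjamini-Hochberg), and was tested on simulated data with known changes. DESeq2, which the authors used, needs counts and was not run. A model of 4 group means gave the effect in each arm and the interaction. Library measures were compared by a two-sided exact permutation test within arms, over 4900 assignments. Depth was estimated from 17592 genes whose only isoform exceeds 600 bases, as the FPKM that 1 read gives (0.0391 to 0.0495 on 1 kilobase). Since it is an estimate, no interval for counting error is given.

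Named genes were the 10 protein-coding genes per direction with the largest pooled change and no overlap, up to 4 DEGs per direction with the smallest p in each list, the genes the study names, the 3 largest changes without a protein product per direction, the 3 smallest interaction p and the genes next to the fold threshold. Some genes that this rule selects are not reported here. The question, the members of the 26 gene and 8 marker lists and the tests were chosen with earlier results of these data known. Alternatives were a pseudocount of 1 or 0.01, no filter or a mean of at least 2 FPKM, array quality weights, robust empirical Bayes, median-ratio scaling, isoforms weighted by length or tested singly, sums per gene identifier, no covariate, each arm alone and leaving out each culture. Tables and plots were made in Python 3.11.15 (pandas 2.3.3, numpy 2.4.6, scipy 1.17.1, matplotlib 3.10.9). Promoter windows are from RefSeq on GRCm38.p6.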

Additional observations from a re-analysis of the deposited data

Results flagged for a closer look

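In 12 of 140 groups of 4 cultures examined (29 genes and 6 library measures), the highest or lowest culture stood apart by Dixon's criterion. For independent normal values, chance alone flags about 1 in 20 groups. The FPKM were not log-transformed here and the genes come from the same cultures, so the 12 cannot be judged against that rate. OGD-TIA 16 accounted for 5 of the 12. It had 3.99 FPKM of *Fosl1* (others of its group 1.24 to 1.56), 17.5 FPKM of *Emp1* (5.52 to 7.02), 33.2 FPKM of *Osgin1* (3.33 to 7.51) and 110 FPKM of *Oaf* (27.9 to 40.2), and the lowest *Slc8a2*, 15.2 FPKM (27.2 to 29.0). For these genes OGD-TIA 16 lay on the side of the stronger OGD change.

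OGD-VEH 9 had 181 FPKM of *Sst*, the interneuron neuropeptide, against 38.9 to 52.1 FPKM in the other OGD-VEH cultures and at least 206 FPKM in CONTROL cultures. OGD-VEH 12 held 4.61% of its summed FPKM in mitochondrial genes, against 5.13 to 5.23% in the others of its group.

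Among the CONTROL cultures, CONTROL-TIA 5 had 0.462 FPKM of *Fosl1* (others 0.049 to 0.114) and 0.294 FPKM of *Gbp2* (0.142 to 0.152). CONTROL-TIA 7 had 1.38 FPKM of *Tnfrsf10b* (0.845 to 0.931), CONTROL-VEH 4 had 8.71 FPKM of *Galntl6* (3.00 to 3.72) and CONTROL-VEH 3 had 0.071 FPKM of *Sprr1a*, which was listed at 0 in the others. The values of *Fosl1*, *Gbp2* and *Sprr1a* rest on a few reads each.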

How the results depend on the processing

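No paired analysis was run, because culture numbers run from 1 to 16 and no 2 groups share one, so the labels give no pairing. Shared preparations are not stated, and a block by order within the groups was not tested. With all cultures, the 100 named DEGs kept their direction in those of 9 alternative settings that tested them, and 54 were called in all 9. A mean of at least 2 FPKM leaves lower genes such as *Sprr1a* untested, and 80 of the 100 were called there. Some of the missing calls are therefore genes that were not tested. Without each culture in turn, 74 of the 100 were called. The count of 780 DEGs (456 up, 324 down) became 394 (252 and 142) with a pseudocount of 1 and 0 (0 and 0) within the TIA arm alone, and the 324 decreases became 212 with isoforms weighted by length. It was 989 with each isoform by itself, 541 with a mean of at least 2 FPKM and 776 with median-ratio scaling, where 50.4% of the DEGs rose in place of 58.5%. In the VEH arm, 1390 genes (727 up, 663 down) became 870 (463 and 407) with a pseudocount of 1 and 668 (393 and 275) when the arm was fitted alone, and the 727 became 1101 with array quality weights. In the TIA arm, 1 gene (1 up, 0 down) became 179 (107 and 72) with array quality weights, 10 (6 and 4) with isoforms weighted by length, 0 (0 up) with a pseudocount of 1 and 0 (0 up) when fitted alone. The interaction went from 0 genes to 101 (43 up, 58 down) with array quality weights and to 3 (1 and 2) without a filter on low values. Genes shared by both arms, 99 up and 50 down, became 47 and 15 with a pseudocount of 1, 62 and 29 with array quality weights, and 33 down with a mean of at least 2 FPKM. The 39 list genes that fell became 19 with array quality weights and 19 with isoforms weighted by length. The cause of these moves was not tested.

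Leaving out each culture in turn gave 526 to 1058 DEGs (317 to 619 up, 209 to 439 down), 678 to 2402 in the VEH arm (394 to 1268 up, 284 to 1134 down), 0 to 39 in the TIA arm (0 to 24 up, 0 to 15 down), 0 to 1 for the interaction (0 to 1 up, 0 down), 49 to 136 shared genes that rose and 26 to 79 that fell, and 65 to 92 list genes that rose and 21 to 55 that fell. The lowest pooled count was without OGD-VEH 12 and the highest without OGD-VEH 9, and the lowest shared counts were without OGD-TIA 16. The summed FPKM of the cultures differed between OGD and CONTROL by p = 0.0239 in the exact permutation test and, after adjustment over 6 measures, by p = 0.0716. At the estimated depth, genes under about 0.5 FPKM rest on few reads, and no statement is made on genes left out by the filter except the 3 named.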

Other observations

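The 74 lines without an identifier summed to 482 to 579 FPKM in CONTROL and 559 to 692 FPKM in OGD cultures, with overlap. No gene of origin was assigned to them.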
